A study of Sus scrofa with 24 samples.

Results

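The miR-29 family in cultured pig adipocytes was described from the 4 entries whose names read ssc-miR-29a, ssc-miR-29b or ssc-miR-29c, among the 1587 miRNA entries of a small RNA-seq table. The entries were ssc-miR-29a-3p, ssc-miR-29a-5p, ssc-miR-29b and ssc-miR-29c, found by a rule on names that uses no measured value. All 4 had reads in all 24 libraries and a mean of at least 1 TPM, the level required of the 430 entries that were tested.

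The cells came from 3 six-day-old Yorkshire piglets and were grown as preadipocytes from the back subcutaneous fat (BF) or from the longissimus dorsi muscle, whose fat cells are called intramuscular (IMF). When nearly confluent, both cultures received the same inducers, 3-isobutyl-1-methylxanthine, dexamethasone and insulin, for 2 days, then medium with insulin until day 4, then plain growth medium with serum until day 8. Day 0 stands for cells before induction, and days 2, 4 and 8 for cells after it, which gave the groups BF-0d, BF-2d, BF-4d, BF-8d, IMF-0d, IMF-2d, IMF-4d and IMF-8d with 3 libraries each. The cultures are primary cells from digested tissue and may hold cells other than adipocytes. No source used here ties a library to one piglet, so p-values measure the spread between these libraries, which may be technical.

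The miR-29 family is known for lowering the output of genes of the extracellular matrix, among them the fibrillar collagens and elastin, and of DNA methyltransferases. It is therefore studied in fibrosis, where its level often falls as matrix builds up. In fat cells it has been linked to insulin signalling, since raised miR-29 lowers insulin-stimulated glucose uptake in cultured adipocytes. A miRNA finds its targets mainly through its seed, bases 2 to 8 from the 5′ end, so members with one seed are thought to share many targets. The hairpin that a miRNA is cut from has 2 arms, and the strand of the arm that is less often kept, here the 5p arm of miR-29a, usually reaches a lower level.

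The mature sequences are shown because the 3 members of the 3p kind differ at few bases, which bears on how far their reads can be told apart. They were taken from the study's list of mature sequences and are written 5′ to 3′, with bases 2 to 8 in capitals.
ssc-miR-29a-3p: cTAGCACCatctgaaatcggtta
ssc-miR-29a-5p: aCTGATTTcttttggtgttcag
ssc-miR-29b: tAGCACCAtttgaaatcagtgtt
ssc-miR-29c: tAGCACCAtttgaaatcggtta
ssc-miR-29b and ssc-miR-29c shared the seed AGCACCA. ssc-miR-29a-3p was listed with 1 more base at its 5′ end, so that the same 7 bases began at position 3 and its bases 2 to 8 read TAGCACC. ssc-miR-29a-5p came from the other arm and shared no seed with them. With positions counted from 1 at the 5′ end of ssc-miR-29b, and with ssc-miR-29a-3p read without its first base, ssc-miR-29a-3p and ssc-miR-29c differed by C10T alone over 22 bases (95.45% identity). ssc-miR-29b differed from ssc-miR-29c by A18G, G21T and T22A (86.36%). ssc-miR-29a-3p differed from ssc-miR-29b by C10T, G18A, T21G and A22T (81.82%). Of the 958 entries with a mature sequence, 0 others held the seed of ssc-miR-29b at bases 2 to 8 or 3 to 9, or had a precursor within 10 kb of these.

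In the genome Sscrofa11.1 the family lay in 2 pairs of hairpins, all on the plus strand and outside any other annotated gene. The hairpins were read from this genome at the positions of the RefSeq annotation and are shown to place the mature sequences, given in capitals, within them.
MIR29B-1: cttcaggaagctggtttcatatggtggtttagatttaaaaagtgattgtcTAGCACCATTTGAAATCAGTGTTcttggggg
MIR29A: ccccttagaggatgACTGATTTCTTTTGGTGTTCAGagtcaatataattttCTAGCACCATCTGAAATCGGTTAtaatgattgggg
MIR29B-2: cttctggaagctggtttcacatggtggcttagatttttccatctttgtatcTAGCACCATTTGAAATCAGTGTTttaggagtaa
MIR29C: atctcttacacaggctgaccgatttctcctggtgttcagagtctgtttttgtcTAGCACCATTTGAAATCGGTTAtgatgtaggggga
MIR29B-1 (chr18:18039629-18039709) and MIR29A (chr18:18040032-18040117) were 322 bases apart. The nearest annotated gene before them was the lncRNA LOC110257572, at 1299 bases, and the nearest after them was KLF14, a gene for a transcription factor, at 107006 bases. MIR29B-2 (chr9:135019079-135019162) and MIR29C (chr9:135019638-135019725) were 475 bases apart, with the lncRNA LOC106507884 at 23284 bases before them and CD46, a gene for a complement regulator, at 5713 bases after them. The mature sequence of ssc-miR-29b had 2 exact copies in the genome, 1 in each pair, while the other 3 had 1 each. The study lists ssc-miR-29b at the chromosome 9 hairpin only. A read of this sequence matches both hairpins, and how such reads were counted is not given in the sources used here, so the value cannot be tied to one of them.

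**Figure D1:**
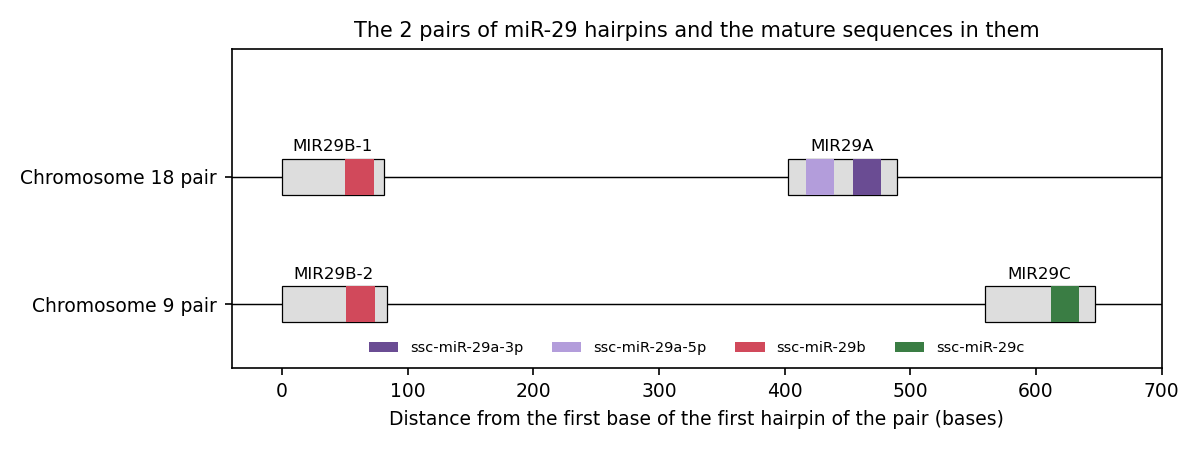
Positions of the 4 miR-29 hairpins (grey boxes) and of the mature sequences within them (coloured), in bases from the start of the first hairpin of each pair. The hairpins of a pair are 322 bases apart on chromosome 18 and 475 on chromosome 9, and the sequence of ssc-miR-29b lies in both pairs.

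The libraries held from 4954845 to 16863560 reads on miRNAs, with a median of 10614384.5. Levels are in the TPM of the deposited table, which here means reads for each 1000000 miRNA reads, with no division by length. The 4 sequences are 22 or 23 nt long, so this matters little when they are compared with each other. 1 read was worth from 0.0593 to 0.202 TPM, and intervals given below cover counting error only. Reads of ssc-miR-21-5p made up from 27.9% to 60.5% of a library, with 27.9% to 40.3% in BF-8d and 39.4% to 45.0% in IMF-8d, against 49.0% to 60.5% in the other 6 groups. Every other value is a share of the same total, so scaling is named below where it decides a call. A bulk library cannot tell fewer cells of a type from less RNA per cell.

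The family was made up almost wholly of 1 member. ssc-miR-29a-3p had a mean of 939.8 TPM over the 24 libraries and took rank 39 among all entries. ssc-miR-29b followed at 63.5 TPM (rank 123), ssc-miR-29a-5p at 3.66 TPM (rank 296) and ssc-miR-29c at 1.34 TPM (rank 391). Of the summed TPM of the family, ssc-miR-29a-3p made up 97.5% ± 0.387 (SD, n = 3) in BF-0d and 86.3% ± 1.49 (SD, n = 3) in BF-8d. The share of ssc-miR-29b was 2.11% ± 0.293 (SD, n = 3) in BF-0d and 13.0% ± 1.55 (SD, n = 3) in BF-8d. For IMF the share of ssc-miR-29b was 3.84% ± 0.776 (SD, n = 3) on day 0 and 6.26% ± 1.17 (SD, n = 3) on day 8. The summed level of the 4 entries was 845 ± 166 TPM in BF-0d, 981 ± 152 in BF-2d, 1488 ± 199 in BF-4d and 1473 ± 122 in BF-8d (SD, n = 3 each). It was 750 ± 86.0, 829 ± 61.1, 760 ± 60.5 and 940 ± 118 TPM in IMF on the same days (SD, n = 3 each).

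**Figure D2:**
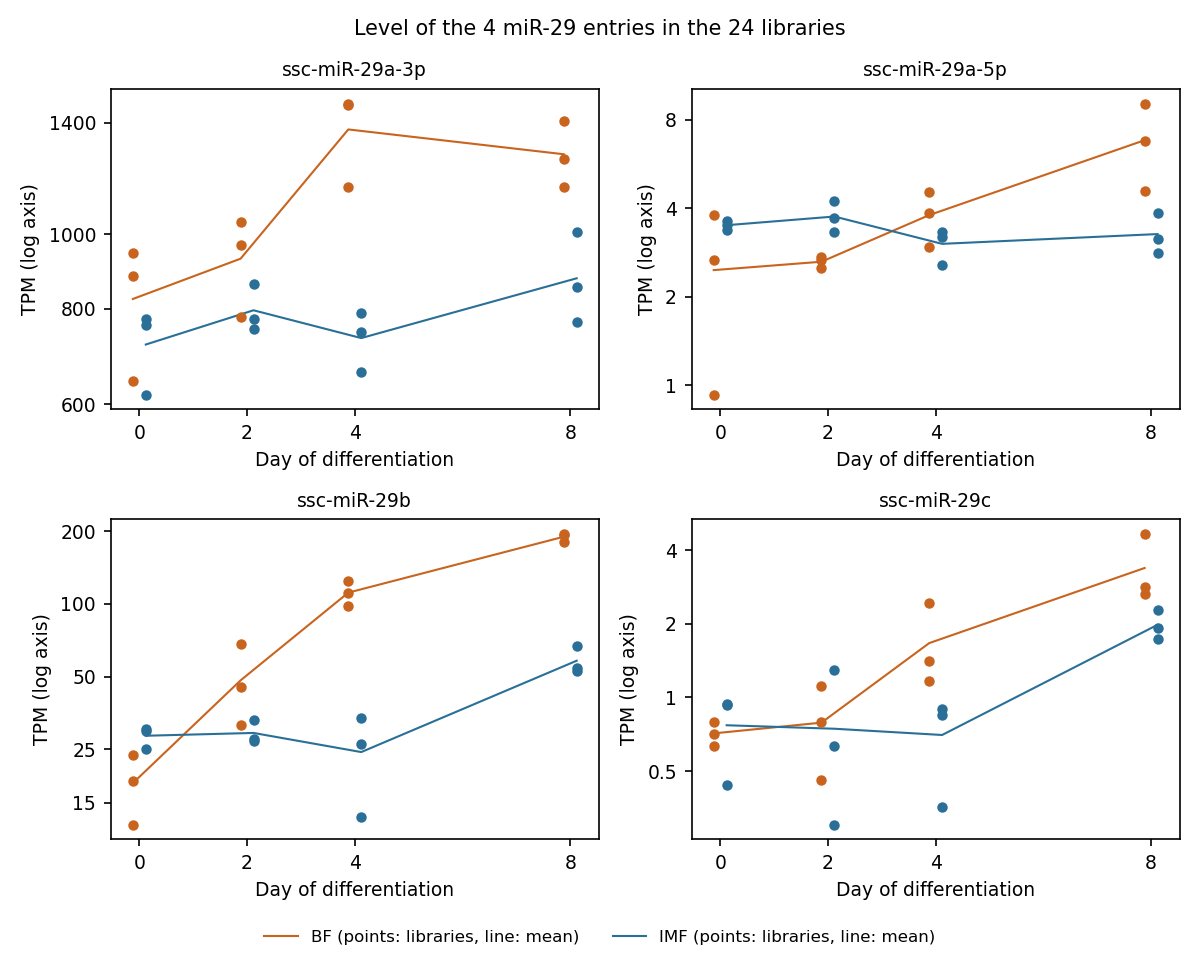
Level of each miR-29 entry in TPM (log axis) against the day of differentiation, with a point for each of the 3 libraries per group and a line through the means, BF in orange and IMF in blue. ssc-miR-29b ran from a mean of 18.1 to 190 TPM in BF and from 28.4 to 58.2 TPM in IMF.

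ssc-miR-29b, which carries the family seed at its usual place, had its widest range of levels in subcutaneous adipocytes. The 3 libraries held 23.6, 12.1 and 18.5 TPM in BF-0d (183 to 312 reads) and 68.0, 45.2 and 31.5 TPM in BF-2d. They held 98.3, 111 and 125 TPM in BF-4d and 194, 180 and 196 TPM in BF-8d (970 to 2488 reads). No library of one day overlapped with a library of another day. In intramuscular adipocytes the libraries held 25.1, 30.4 and 29.7 TPM in IMF-0d, 27.5, 27.0 and 33.1 TPM in IMF-2d and 33.6, 26.3 and 13.1 TPM in IMF-4d. They held 52.8, 67.2 and 54.5 TPM in IMF-8d, above every earlier IMF library, while the first 3 days overlapped with each other. The third library of IMF-4d, with 138 reads, was the lowest IMF library.

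In order of the mean level of ssc-miR-29b, BF-8d (190 ± 8.35 TPM, SD, n = 3) came first, BF-4d (111 ± 13.3) followed and IMF-8d (58.2 ± 7.84) came after it, each without overlap with the next group above. BF-2d (48.2 ± 18.4 TPM) overlapped with IMF-8d. Below it, IMF-2d (29.2 ± 3.36 TPM), IMF-0d (28.4 ± 2.86), IMF-4d (24.3 ± 10.4) and BF-0d (18.1 ± 5.74) each overlapped with the neighbour above. BF thus held both the lowest and the highest group mean.

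The change within a source was tested with limma on log2(TPM + 1) of the 2 groups compared, and an entry was called a DE-miRNA at a Benjamini-Hochberg FDR under 0.05 over the 430 tested entries together with a fold change above 1.5. On this scale the change of entries near 1 TPM is understated. From BF-0d to BF-8d ssc-miR-29b rose by 3.37 on the log2 scale (SE 0.23, limma adjusted p = 4.27e-09), and the ratio of the means was 10.5. It stayed a DE-miRNA in all 10 other settings and without each of the 6 libraries, with a log2 fold change from 2.82 to 3.58. All 4 members were DE-miRNAs in BF-0d vs. BF-8d, each of them higher on day 8, in a comparison in which 42.8% of all tested entries were called, 120 higher and 64 lower. ssc-miR-29c was among the tested entries through its day 8 levels, as given below.

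The steps of this rise were less certain than the whole. In BF-0d vs. BF-2d, where 4.19% of all tested entries were called, 0 members were DE-miRNAs by limma. ssc-miR-29b had a log2 fold change of 1.35 (SE 0.35, limma adjusted p = 0.0891), was called in 5 of 10 other settings, edgeR and DESeq2 on whole reads among them, and without replicate 3 of BF-2d (1.61, limma adjusted p = 0.0377). In BF-2d vs. BF-4d it was the 1 member called (6.05% of all tested entries), with a rise of 1.25 (SE 0.29, limma adjusted p = 0.0327). That call was lost without replicate 2 (1.24) or 3 (0.99) of BF-2d and without replicate 2 (1.25) or 3 (1.17) of BF-4d. It was also lost with edgeR (1.04, adjusted p = 0.0530), with the total taken without ssc-miR-21-5p (1.14, limma adjusted p = 0.0503) and without a filter (limma adjusted p = 0.364). In BF-4d vs. BF-8d 0 members were called (3.02% of all tested entries), and ssc-miR-29b had a log2 fold change of 0.77 (SE 0.21, limma adjusted p = 0.0677). In that step it was called in 3 of 10 other settings. The value was 0.36 with the total taken without ssc-miR-21-5p (limma adjusted p = 0.346). With one fit of all 24 libraries, ssc-miR-29b was called in all 3 steps.

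In intramuscular adipocytes ssc-miR-29b passed the test from day 4 to day 8 and from day 0 to day 8. The first step of the IMF course (IMF-0d vs. IMF-2d) and the second (IMF-2d vs. IMF-4d) each had 0 members and 0% of all tested entries called by limma, with 68 and 65 of the 430 entries at an unadjusted p under 0.05. The log2 fold change of ssc-miR-29b was 0.04 (95% confidence interval -0.30 to 0.37) in the first step and -0.34 (-1.22 to 0.53) in the second. Without replicate 3 of IMF-4d the second was 0.03. In IMF-4d vs. IMF-8d it rose by 1.31 (SE 0.32, limma adjusted p = 0.0372), where 13.0% of all tested entries were called. That call was lost without replicate 2 of IMF-4d (1.42) and without replicate 1 (1.38), 2 (1.21) or 3 (1.36) of IMF-8d. It was also lost with median-of-ratios scaling (1.13, limma adjusted p = 0.0835), the total taken without ssc-miR-21-5p (1.01, limma adjusted p = 0.109), DESeq2 (adjusted p = 0.107) and no filter (limma adjusted p = 0.181). From IMF-0d to IMF-8d it rose by 1.0 (SE 0.15, limma adjusted p = 0.00347), with 30.5% of all tested entries called, and it stayed called in all 10 other settings and without each library, with log2 fold changes from 0.59 to 1.07. The lowest, 0.59 (limma adjusted p = 0.0330), came with the total taken without ssc-miR-21-5p and lay just above the 1.5-fold criterion.

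The difference between the 2 time courses was tested in one limma fit of all 24 libraries. For ssc-miR-29b the interaction of source and day had an adjusted p of 1.36e-05 (moderated F test), against 31.6% of all tested entries under 0.05, and it passed in all 8 other settings. The change from day 0 to day 8 in IMF minus that in BF was -2.36 on the log2 scale (SE 0.38, limma adjusted p = 7.32e-05, 20.7% of all tested entries under 0.05). From day 2 to day 4 this difference was -1.60 (SE 0.38, limma adjusted p = 0.00985, 7.67% of all tested entries), with a loss of the call in edgeR (adjusted p = 0.104), without replicate 3 of each group (-0.78) and without replicate 2 (-1.74). From day 0 to day 2 it was -1.31 (SE 0.38, limma adjusted p = 0.0606), in a step in which 2.33% of all tested entries passed. From day 4 to day 8, where 12.3% passed, it was 0.54 (SE 0.38, limma adjusted p = 0.410).

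Between the sources on one day, the order turned over during differentiation. On day 0 all 3 IMF libraries lay above the 3 BF libraries for ssc-miR-29b, by 0.67 on the log2 scale (SE 0.26, limma adjusted p = 0.104). This was not called by limma, which called 0 members and 29.3% of all tested entries, but it was called by edgeR (0.92) and DESeq2 (0.87). On day 2 the groups overlapped and the log2 fold change of IMF over BF was -0.64 (SE 0.28, limma adjusted p = 0.191), with 0 members and 12.3% of all tested entries called. Without replicate 3 of BF-2d it was -0.91 and past both criteria. On day 4 ssc-miR-29b was lower in IMF, with a log2 fold change of -2.24 (SE 0.31, limma adjusted p = 2.80e-04), where 36.3% of all tested entries were called. On day 8 the log2 fold change was -1.70 (SE 0.16, limma adjusted p = 1.97e-06), with 37.2% called. Both calls stayed in all 10 other settings and without each library.

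ssc-miR-29a-3p, the most abundant member, varied within a narrower range. Its libraries held 945, 643 and 882 TPM in BF-0d, 1039, 970 and 780 TPM in BF-2d, 1155, 1477 and 1483 TPM in BF-4d and 1155, 1408 and 1256 TPM in BF-8d. In IMF they held 774, 617 and 762 TPM on day 0, 752, 775 and 861 TPM on day 2, 745, 662 and 789 TPM on day 4 and 1006, 854 and 768 TPM on day 8. The libraries of BF-4d and BF-8d lay above all others, and the remaining 6 groups overlapped in part.

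By mean level of ssc-miR-29a-3p, BF-4d (1371 ± 188 TPM, SD, n = 3) and BF-8d (1273 ± 127) came first and overlapped. A gap followed to BF-2d (929 ± 134). IMF-8d (876 ± 121), BF-0d (823 ± 159), IMF-2d (796 ± 57.6), IMF-4d (732 ± 64.6) and IMF-0d (718 ± 87.5) came after it, and neighbours in this order overlapped.

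From BF-0d to BF-8d ssc-miR-29a-3p rose by 0.64 on the log2 scale (SE 0.20, limma adjusted p = 0.0142), a ratio of means of 1.55. This call depended on the scaling. With the total taken without ssc-miR-21-5p the log2 fold change was 0.05 (limma adjusted p = 0.867), and with median-of-ratios scaling it was 0.46 (limma adjusted p = 0.0511). With edgeR (0.49) and DESeq2 (0.46) it fell short of the fold change criterion, and without a filter it did not pass (limma adjusted p = 0.0950). It was also lost without replicate 2 of BF-0d (0.47) and without replicate 2 of BF-8d (0.57). In BF-2d vs. BF-4d the groups did not overlap, with a log2 fold change of 0.56 (SE 0.21, limma adjusted p = 0.105), which passed without replicate 1 of BF-4d (0.68). In IMF-0d vs. IMF-8d the groups overlapped, with a log2 fold change of 0.29 (95% confidence interval -0.07 to 0.64). Its sign turned in 1 of 16 alternatives, which gave -0.15.

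On day 4 ssc-miR-29a-3p was lower in IMF than in BF by the TPM values, with a log2 fold change of -0.90 (SE 0.21, limma adjusted p = 0.00511). The call was lost with median-of-ratios scaling (-0.47, limma adjusted p = 0.0858), edgeR (-0.45) and DESeq2 (-0.48). On day 8 the libraries of the sources did not overlap and the log2 fold change was -0.54 (SE 0.17, limma adjusted p = 0.0180). This fell short of the fold change criterion, which was passed without replicate 1 of BF-8d (-0.61) or replicate 1 of IMF-8d (-0.65). The FDR was missed with median-of-ratios scaling (-0.22, limma adjusted p = 0.213), edgeR (-0.20) and DESeq2 (-0.25). It was also missed with the total taken without ssc-miR-21-5p (-0.38, limma adjusted p = 0.207), a replicate block (limma adjusted p = 0.0522) and no filter (limma adjusted p = 0.0761). Leaving out replicate 2 of BF-8d, or replicate 2 or 3 of IMF-8d, lost it as well. The difference between the time courses of ssc-miR-29a-3p did not pass the interaction test (moderated F test in limma, adjusted p = 0.0751).

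The median log2 fold change of all tested entries shifted with the scaling, by -0.15 in BF-0d vs. BF-8d and in IMF-4d vs. IMF-8d and by 0.13 in IMF-2d vs. IMF-4d when median-of-ratios scaling replaced TPM. Between IMF and BF it shifted by 0.12, 0.13, 0.34 and 0.25 on days 0, 2, 4 and 8. Under that scaling the log2 fold changes of ssc-miR-29b were 3.18 in BF-0d vs. BF-8d, 0.98 in IMF-0d vs. IMF-8d, -1.82 in BF-4d vs. IMF-4d and -1.38 in BF-8d vs. IMF-8d, all past both criteria.

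**Figure D3:**
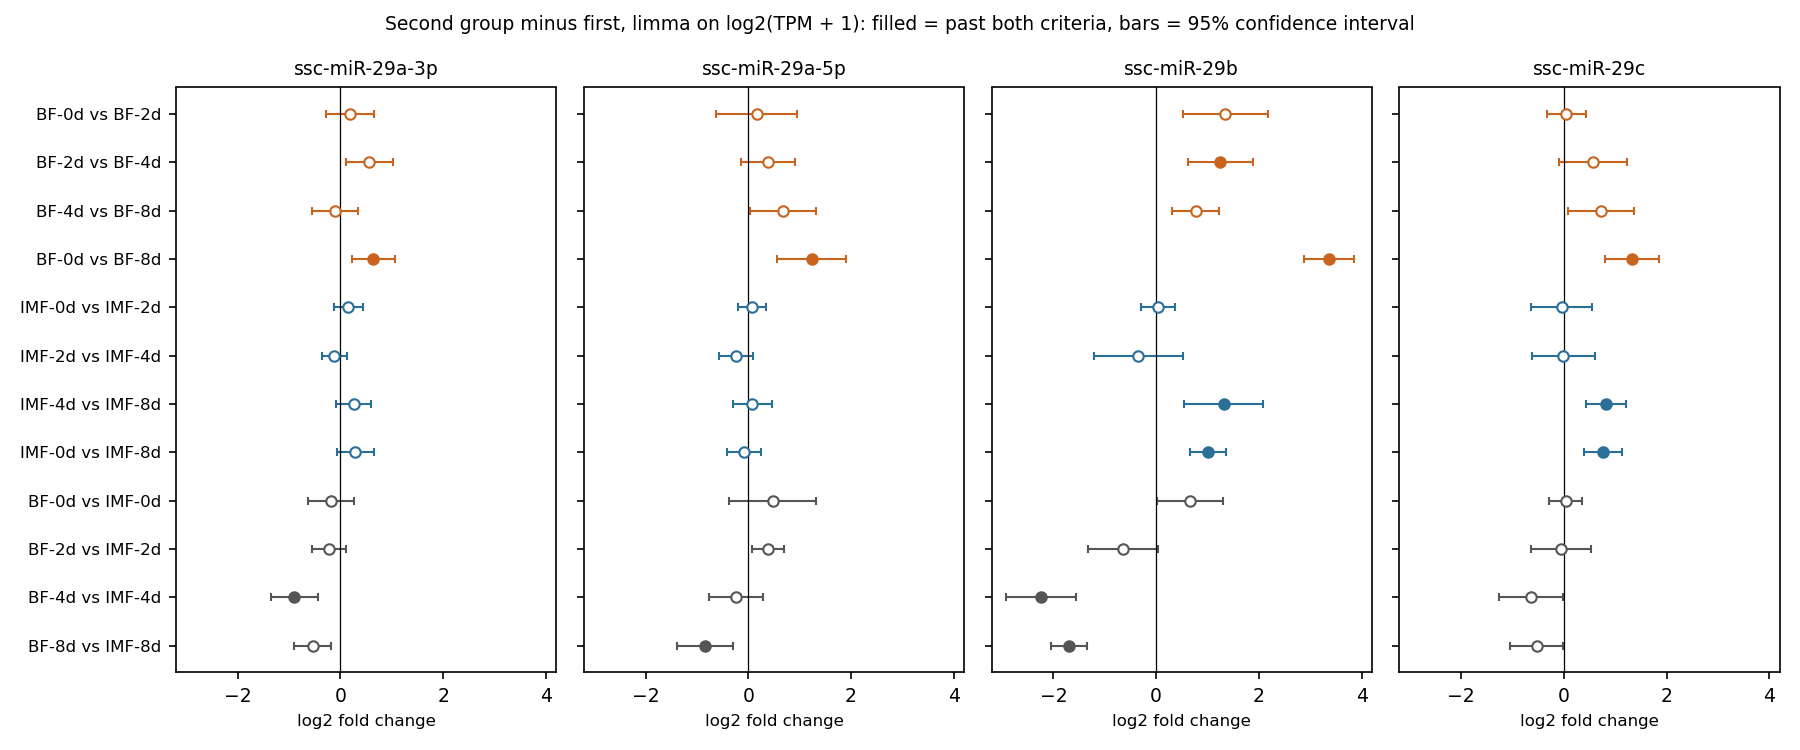
Log2 fold change (second group minus first, horizontal axis) of each miR-29 entry in the 12 comparisons, with 95% confidence intervals, filled where past both criteria, in orange within BF, blue within IMF and grey between the sources. ssc-miR-29b stands at 3.37 in BF-0d vs. BF-8d and 1.0 in IMF-0d vs. IMF-8d, and at -2.24 and -1.70 for IMF against BF on days 4 and 8.

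The ratio of ssc-miR-29b to ssc-miR-29a-3p within a library does not depend on the total of the library or on ssc-miR-21-5p. In BF-0d ssc-miR-29b stood at 1.89% to 2.50% of ssc-miR-29a-3p, in BF-2d at 4.04% to 6.54%, in BF-4d at 7.53% to 8.51% and in BF-8d at 12.8% to 16.8%. In IMF it stood at 3.25% to 4.93% on day 0, 3.49% to 3.84% on day 2, 1.66% to 4.50% on day 4 and 5.25% to 7.86% on day 8. The BF groups did not overlap on any pair of days, and IMF-8d lay above the other IMF groups, which overlapped.

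On the log2 scale this ratio was 2.80 higher in BF-8d than in BF-0d (7.0-fold) and 0.74 higher in IMF-8d than in IMF-0d. Each had an exact two-sided permutation p of 0.1, the smallest that 3 against 3 libraries can give. The change in IMF minus that in BF was -2.06 (exact permutation of the source labels within each day, 400 arrangements, p = 0.005). That p is the smallest these arrangements can give. The permutation assumes no difference between the sources on day 0 or day 8, rather than an equal change. The 2 sources did not overlap on any of the 4 days, with the ratio higher in IMF on day 0 (0.89) and lower on days 2 (-0.44), 4 (-1.39) and 8 (-1.17), each with an exact permutation p of 0.1. The ratio had been computed for 12 pairs of groups, and no pair could reach a p of 0.05.

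**Figure D4:**
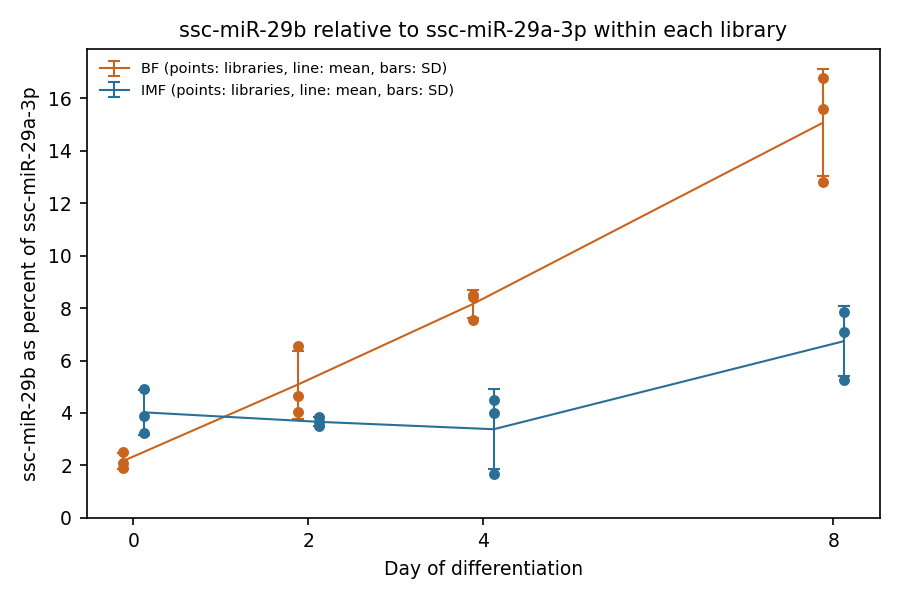
ssc-miR-29b as a percentage of ssc-miR-29a-3p (vertical axis, from 0) against the day of differentiation, with a point per library, a line through the means and bars of 1 SD (n = 3). The mean was 2.16% in BF-0d and 15.1% in BF-8d, and 4.02% in IMF-0d and 6.74% in IMF-8d.

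ssc-miR-29a-5p, the strand of the other arm of MIR29A, had from 14 to 59 reads per library. It held 3.80, 0.928 and 2.67 TPM in BF-0d, 2.72, 2.67 and 2.50 TPM in BF-2d, 3.86, 4.55 and 2.96 TPM in BF-4d and 4.60, 6.77 and 9.08 TPM in BF-8d. Its 12 IMF values ranged from 2.57 to 4.24 TPM. BF-8d lay above every other group, whose libraries overlapped in the order of their means, BF-4d (3.79 TPM), IMF-2d (3.75), IMF-0d (3.50), IMF-8d (3.27), IMF-4d (3.03), BF-2d (2.63) and BF-0d (2.46).

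From BF-0d to BF-8d ssc-miR-29a-5p rose by 1.23 on the log2 scale (SE 0.32, limma adjusted p = 0.00512), and the call was lost with the total taken without ssc-miR-21-5p (0.88, limma adjusted p = 0.0986) and without a filter (limma adjusted p = 0.161). From IMF-0d to IMF-8d its log2 fold change was -0.08 (95% confidence interval -0.41 to 0.24). The time courses differed (moderated F test in limma, adjusted p = 0.0161), and the change from day 0 to day 8 in IMF minus that in BF was -1.31 (SE 0.35, limma adjusted p = 0.00937). Without replicate 2 of each group the latter was -0.91 and without replicate 3 it was -1.27, neither past the threshold, and the F test was lost as well (limma adjusted p = 0.164 and 0.149). The F test was also lost with the total taken without ssc-miR-21-5p (limma adjusted p = 0.0770). On day 8 the log2 fold change of IMF over BF was -0.84 (SE 0.25, limma adjusted p = 0.0166). That call was lost with median-of-ratios scaling (-0.56), with edgeR (-0.66) and DESeq2 (-0.73), with the total taken without ssc-miR-21-5p (limma adjusted p = 0.0836), without a filter (limma adjusted p = 0.128), and without replicate 3 of BF-8d (-0.63), replicate 1 of IMF-8d (-0.76) or replicate 2 of IMF-8d (-0.82).

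The ratio of the 2 arms of MIR29A was compared within libraries. The 3p reads outnumbered the 5p reads 424 ± 236 to 1 in BF-0d, 352 ± 36.1 in BF-2d, 375 ± 110 in BF-4d and 199 ± 56.9 in BF-8d (SD, n = 3 each). In IMF the ratio was 205 ± 26.8, 213 ± 17.5, 243 ± 12.5 and 276 ± 78.5 on the same days (SD, n = 3 each). On days 0, 2 and 4 the ratio was lower in every IMF library than in every BF library, and on day 8 the sources overlapped. Within a source the day 0 and day 8 groups overlapped, with a log2 change of -0.99 in BF (exact permutation p = 0.2) and 0.40 in IMF (exact permutation p = 0.3), where the design allows no p below 0.1. The change in BF was -0.57 without replicate 2 of BF-0d, which held 14 reads of the 5p arm, and -0.59 with 1 added to both values. On the log2 scale the change from day 0 to day 8 was 1.39 higher in IMF than in BF (exact permutation of the source labels within each day, p = 0.025). Here too the permutation assumes no difference between the sources on day 0 or day 8. This test missed the threshold when any of 6 single libraries was left out, replicate 3 of BF-8d (1.15), replicates 1, 2 and 3 of IMF-0d (1.48, 1.29 and 1.41) or replicates 1 and 2 of IMF-8d (1.19 and 1.38).

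ssc-miR-29c, the member next to MIR29B-2 on chromosome 9, was the rarest, with 3 to 34 reads per library. It held 0.633, 0.796 and 0.712 TPM in BF-0d, 1.11, 0.458 and 0.795 TPM in BF-2d, 1.41, 2.43 and 1.17 TPM in BF-4d and 2.65, 4.68 and 2.83 TPM in BF-8d. In IMF it held 0.938, 0.437 and 0.934 TPM on day 0, 1.30, 0.302 and 0.636 TPM on day 2, 0.355, 0.901 and 0.852 TPM on day 4 and 2.29, 1.74 and 1.92 TPM on day 8. The 3 reads of the second IMF-2d library allow from 0.0622 to 0.881 TPM (95% Poisson interval). BF-8d lay above IMF-8d, IMF-8d overlapped with BF-4d, and the remaining 5 groups, with means from 0.703 to 0.789 TPM, overlapped with each other. Its mean without the day 8 groups was 0.898 TPM, so it passed the filter of 1 TPM through the groups in which it was highest.

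ssc-miR-29c rose by 1.33 on the log2 scale from BF-0d to BF-8d (SE 0.25, limma adjusted p = 4.25e-04), a ratio of means of 4.74, and stayed called in all 9 other settings that held it. From IMF-0d to IMF-8d it rose by 0.76 (SE 0.15, limma adjusted p = 0.0109), a ratio of means of 2.57, a call lost with the total taken without ssc-miR-21-5p (0.68, limma adjusted p = 0.0784) and without a filter (limma adjusted p = 0.0707). In IMF-4d vs. IMF-8d it rose by 0.82 (SE 0.16, limma adjusted p = 0.0155), a call lost without replicate 1 of IMF-8d (0.75), without a filter (limma adjusted p = 0.111), with the total taken without ssc-miR-21-5p (limma adjusted p = 0.0622) and with DESeq2 (adjusted p = 0.0850). Since ssc-miR-29c entered the test through its day 8 levels, these calls are no support for a rise of the family. IMF against BF it was not called on any day, with log2 fold changes of 0.03, -0.06, -0.64 and -0.53 on days 0, 2, 4 and 8, though it passed on day 4 in one fit of all 24 libraries (limma adjusted p = 0.0380) and without replicate 1 of BF-4d (-0.70) and on day 8 without replicate 1 of BF-8d (-0.65). The difference between the sources in its time course did not pass (moderated F test in limma, adjusted p = 0.286), and the change from day 0 to day 8 in IMF minus that in BF was -0.56 (SE 0.35). The reads of ssc-miR-29c came to 0.0389% to 0.332% of those of ssc-miR-29a-3p, which differs by 1 base. This share was 0.0905% ± 0.0296 in BF-0d, 0.262% ± 0.0607 in BF-8d, 0.105% ± 0.0294 in IMF-0d and 0.227% ± 0.0234 in IMF-8d (SD, n = 3 each). Misread bases of ssc-miR-29a-3p as a part of these reads were not tested.

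ssc-miR-29b and ssc-miR-29c, which share a seed, were also set side by side. The ratio of ssc-miR-29b to ssc-miR-29c was 26.2 ± 11.0 in BF-0d, 66.4 ± 29.9 in BF-2d, 74.2 ± 30.9 in BF-4d and 60.3 ± 18.9 in BF-8d (SD, n = 3 each). In IMF it was 42.7 ± 23.3, 54.3 ± 34.3, 46.3 ± 42.3 and 30.0 ± 7.91 on the same days (SD, n = 3 each). BF-0d lay below the 3 later BF groups, which overlapped with each other, and the 4 IMF groups overlapped. These ratios rest on 3 to 34 reads of ssc-miR-29c per library and were not tested.

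Over the 24 libraries, Pearson's r of log2(TPM + 1) with ssc-miR-29b was 0.83 for ssc-miR-29a-3p, 0.76 for ssc-miR-29c and 0.66 for ssc-miR-29a-5p. The 5 entries outside the family most like ssc-miR-29b were novel_miR_298 (0.93), ssc-miR-132 (0.91), ssc-miR-210 (0.89), ssc-miR-34a (0.87) and novel_miR_1228 (0.87), and the least like was novel_miR_484 (-0.83). The 5 most like ssc-miR-29a-3p were ssc-miR-212 (0.90), novel_miR_885 (0.90), ssc-miR-15b (0.89), ssc-miR-222 (0.89) and ssc-miR-30d (0.88), and the least like was ssc-miR-187 (-0.85). These values describe 24 points that share 8 groups and the library totals. ssc-miR-210 is known for its response to low oxygen and ssc-miR-34a as a target of p53. Their means over the 24 libraries were 152.5 and 168.7 TPM. Without the day 8 groups the mean of ssc-miR-210 was 77.4 TPM.

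Other miRNAs linked to fibrosis, the field in which miR-29 is best known, were counted from a list of 13, of which 11 were tested. The list was not sorted by whether a member is held to promote or to curb fibrosis, so its counts give no direction for fibrosis. By the TPM values, 5 of the 11 rose from BF-0d to BF-8d and 1 fell, with a median log2 fold change of 0.49. Over all tested entries the median was 0.15 and 42.8% were called (120 higher, 64 lower). From IMF-0d to IMF-8d 8 rose and 0 fell, with a median of 0.81. Over all tested entries the median was 0.07 and 30.5% were called (85 higher, 46 lower). This list, like those below, was drawn up with earlier results of these data known, so its counts are a description only. The largest changes in BF were those of ssc-miR-155-5p, known from inflammation (498 ± 58.4 to 1432 ± 336 TPM, log2 fold change 1.5), ssc-miR-133a-3p, a miRNA of muscle (7.68 ± 0.146 to 22.4 ± 1.11 TPM, 1.43), and ssc-miR-30a-5p (589 ± 37.1 to 1339 ± 60.8 TPM, 1.19). In IMF they were those of ssc-miR-30a-5p (545 ± 33.7 to 1428 ± 115 TPM, 1.38), ssc-miR-199a-3p (1668 ± 256 to 3512 ± 523 TPM, 1.08) and ssc-miR-30c-5p (95.1 ± 14.8 to 185 ± 26.2 TPM, 0.96). The entry that fell in BF, named after its values were seen, was ssc-miR-21-5p (log2 fold change -0.71, limma adjusted p = 0.0143), which makes up most of the summed level of this list. In IMF its log2 fold change was -0.43 (limma adjusted p = 0.124). The summed level of the list was 561020 to 610019 TPM in BF-0d and 298591 to 424484 TPM in BF-8d, and 542020 to 618620 TPM in IMF-0d and 411568 to 471206 TPM in IMF-8d, so that in both sources every day 8 library lay below every day 0 library. ssc-miR-30a-5p and ssc-miR-30c-5p belong to the miR-30 family as well, and ssc-miR-133a-3p to the muscle markers given below. The counts and fold changes of this list, and of the adipogenesis, let-7, miR-30 and marker lists below, rest on TPM alone. Other scalings were not tried on them. For ssc-miR-29a-3p in BF-0d vs. BF-8d, taking the total without ssc-miR-21-5p gave a log2 fold change of 0.05 beside 0.64 by TPM.

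Of a list of 23 miRNAs linked to adipogenesis, 21 were tested. From BF-0d to BF-8d 7 rose and 3 fell (median log2 fold change 0.26), and from IMF-0d to IMF-8d 6 rose and 1 fell (median 0.05). The medians over all tested entries were 0.15 and 0.07 and the shares called 42.8% and 30.5%, so the counts of this list were near the background. ssc-miR-210 rose in BF from 17.8 ± 2.39 to 498 ± 103 TPM (log2 fold change 4.71) and from 67.9 ± 8.60 to 258 ± 44.1 TPM in IMF (1.90). ssc-miR-146b, known from the response to inflammation, rose in BF from 4.84 ± 1.24 to 62.3 ± 12.8 TPM (3.44) and from 42.6 ± 8.88 to 130 ± 19.0 TPM in IMF (1.60). The next largest were ssc-miR-222 in BF (471 ± 71.0 to 1602 ± 695 TPM, 1.69) and ssc-miR-335 in IMF (6.84 ± 1.29 to 15.5 ± 4.26 TPM, 1.05). Errors are SD with n = 3, and each change named was past both criteria in limma.

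From day 0 to day 8, 4 of 4 miR-29 entries rose in BF, where 42.8% of all tested entries were called, and 2 of 4 in IMF, where 30.5% were. Without a filter, and with the total taken without ssc-miR-21-5p, 2 of the 4 were called in BF and 1 in IMF. Both counts of the first sentence include ssc-miR-29c, which passed the filter through its day 8 levels, so nothing about the family is read from them. 2 other seed families were counted beside them. Of the 8 let-7 entries, 0 rose and 1 fell in BF, with log2 fold changes from -0.68 to 0.21, and 0 rose and 0 fell in IMF, with log2 fold changes from -0.31 to 0.38. Of the 5 miR-30 entries, 3 rose in BF (-0.47 to 2.93) and 4 in IMF (-0.20 to 2.78).

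Markers of other cells were read from 3 lists. The skeletal muscle list had 5 of 6 entries in the table, and its summed level lay at 818 to 1012 TPM in BF-0d, 475 to 544 TPM in BF-2d, 1042 to 1526 TPM in BF-4d and 1324 to 2361 TPM in BF-8d, against 696 to 1738 TPM in the IMF groups. Nearly all of it was ssc-miR-1 (450 to 2324 TPM), while ssc-miR-206 and ssc-miR-133b, which mark skeletal muscle more narrowly, stayed below 1 TPM in every library. The 7 blood cell entries summed to 1.19 to 1.99 TPM in BF-0d, 3.71 to 4.44 TPM in BF-8d, 1.31 to 1.87 TPM in IMF-0d and 6.68 to 8.08 TPM in IMF-8d, with ssc-miR-144, ssc-miR-223 and ssc-miR-150 at 0.202 TPM or less. The 2 endothelial entries summed to 38.1 to 71.2 TPM in BF-0d, 51.2 to 90.9 TPM in BF-8d and 18.2 to 40.4 TPM in the IMF groups. From BF-0d to BF-8d members of the muscle list moved in both directions. ssc-miR-133a-3p (log2 fold change 1.43), ssc-miR-1 (0.91) and ssc-miR-126-5p of the endothelial list (0.71) rose past both criteria in limma, whereas ssc-miR-499-5p of the muscle list fell (-0.73), with 20.1 ± 2.65 TPM in BF-0d and 11.9 ± 3.01 TPM in BF-8d (SD, n = 3 each). ssc-miR-126-3p, which made up nearly all of the endothelial sum, had a log2 fold change of 0.29 (limma adjusted p = 0.412) and was not called. From IMF-0d to IMF-8d ssc-miR-133a-3p rose (0.84). ssc-miR-486 of the blood list was called higher on day 8 in BF (1.30) and in IMF (2.01), but its mean without the day 8 groups was 0.727 TPM. Like ssc-miR-29c it passed the filter through the groups in which it was highest, so its calls are a description only. The part of these cells in the miR-29 results was not tested.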

How the data were processed

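Small RNA of 24 libraries was sequenced by the authors as single-end reads of 50 nt, mapped to Sscrofa11.1 with Bowtie without mismatches, assigned to miRBase entries and to entries predicted by miRDeep2, and tested with DESeq2, per the study's methods and the submitters' processing notes. The deposited values, named TPM by the authors, are RPM, that is, reads per 1000000 reads counted on the listed entries, and all 38088 values lay within 0.1 of a whole number of reads. How reads that match more than one genome copy were counted is not given in the sources used here. The paper names no molecular identifiers, so PCR copies were not removed. Groups were taken from the sample titles.

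Here limma 3.58.1 (eBayes with trend, R 4.3.3) was fitted to log2(TPM + 1) of the 2 groups of each of 12 comparisons for the 430 entries whose mean reached 1 TPM. DE-miRNAs passed an FDR of 0.05 as well as a 1.5-fold change, and the source-by-day interaction was fitted to all libraries. Log2 ratios within libraries got exact two-sided permutation tests. Fold changes are given for the later day over the earlier and for IMF over BF. Other settings tried were median-of-ratios scaling, dropping the filter or raising it to 10 TPM, a pseudocount of 0.1, a single fit for all groups, a replicate block, a total without ssc-miR-21-5p, FDR alone, edgeR 4.0.16 and DESeq2 1.42.0 on whole reads, and fits without single libraries. Deviations of same-numbered libraries from their group means correlated between -0.33 and 0.51, and all 3 pairs lay above 0.1 only in BF-0d vs. IMF-0d (0.19, 0.51 and 0.21).

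Named are the 4 entries, any other with their seed or within 10 kb, the 5 most and the 1 least like ssc-miR-29b and ssc-miR-29a-3p, and up to 3 of the largest changes past the criteria from each list, with let-7 and miR-30 as counts and ranges. The family was picked for description, and the lists were drawn up, with earlier results of these data known. The fits were tested on simulated data. SciPy 1.17.1, pandas 2.3.3, NumPy 2.4.6 and Matplotlib 3.10.9 ran under Python 3.11.15.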

Additional observations from a re-analysis of the deposited data

Results flagged for a closer look

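For 2 members the effect of differentiation differed between the sources by a test of the difference itself. ssc-miR-29b had an adjusted p of 1.36e-05 for the interaction of source and day (moderated F test in limma). Its change in IMF minus its change in BF was -2.36 on the log2 scale from day 0 to day 8 and -1.60 from day 2 to day 4. The latter did not pass with edgeR (adjusted p = 0.104), nor without replicate 2 (-1.74, limma adjusted p = 0.0890) or 3 (-0.78, limma adjusted p = 0.419) of each group. ssc-miR-29a-5p, measured with 14 to 59 reads per library, had an adjusted p of 0.0161 in the same test, and its change in IMF minus that in BF was -1.31 from day 0 to day 8. The F test of ssc-miR-29a-5p did not pass with the total taken without ssc-miR-21-5p (limma adjusted p = 0.0770), nor without replicate 2 (0.164) or 3 (0.149) of each group.

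The log2 ratio of ssc-miR-29b to ssc-miR-29a-3p within a library changed by -2.06 in IMF relative to BF from day 0 to day 8. The log2 ratio of ssc-miR-29a-3p to ssc-miR-29a-5p changed by 1.39 in IMF relative to BF over the same days. That ratio rests on 14 to 59 reads of ssc-miR-29a-5p per library. Its exact permutation test (p = 0.025) missed the threshold when certain single libraries were left out, as given above.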

How the results depend on the processing

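The numbers of members called depended on the setting as follows, beside the numbers of the report. In BF-0d vs. BF-2d 1 instead of 0 was called with a filter at 10 TPM, one fit of all 24 libraries, median-of-ratios scaling, edgeR and DESeq2 (0 to 1 without single libraries). In BF-2d vs. BF-4d 0 instead of 1 was called without a filter, with the total without ssc-miR-21-5p and with edgeR (0 to 2 without single libraries). In BF-4d vs. BF-8d 1 instead of 0 was called with a filter at 10 TPM and DESeq2, and 2 with one fit of all 24 libraries. In BF-0d vs. BF-8d 2 instead of 4 were called without a filter, with a filter at 10 TPM and with the total without ssc-miR-21-5p, and 3 with median-of-ratios scaling, edgeR and DESeq2 (3 to 4 without single libraries). In IMF-4d vs. IMF-8d 0 instead of 2 were called without a filter, with the total without ssc-miR-21-5p and with DESeq2, and 1 with a filter at 10 TPM and with median-of-ratios scaling (0 to 2 without single libraries). In IMF-0d vs. IMF-8d 1 instead of 2 was called without a filter, with a filter at 10 TPM and with the total without ssc-miR-21-5p. Between the sources, edgeR and DESeq2 called 1 instead of 0 on day 0, and fits without single libraries 0 to 1 on day 2, 2 to 3 on day 4 and 1 to 4 on day 8. On day 4, median-of-ratios scaling, edgeR and DESeq2 called 1 instead of 2, and one fit of all 24 libraries called 3. On day 8, 3 were called at the FDR alone, and 1 instead of 2 was called without a filter, with a filter at 10 TPM, median-of-ratios scaling, the total without ssc-miR-21-5p, edgeR and DESeq2.

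The interaction test passed for 1 instead of 2 members with a filter at 10 TPM and with the total without ssc-miR-21-5p (1 to 2 without a replicate). Of its steps, day 0 to day 2 gave 1 instead of 0 with a filter at 10 TPM, median-of-ratios scaling and DESeq2 (0 to 1 without a replicate), day 2 to day 4 gave 0 instead of 1 with edgeR (0 to 1), and day 0 to day 8 gave 1 instead of 2 with a filter at 10 TPM (1 to 2). The difference of the log2 ratio of ssc-miR-29a-3p to ssc-miR-29a-5p between the sources ranged from 0.97 to 1.70 without single libraries, 6 of which ended the call. For ssc-miR-29b, IMF-0d vs. IMF-2d changed its sign to -0.10 with the total without ssc-miR-21-5p and to -0.0302 with edgeR, and ranged from -0.0535 to 0.0868 without single libraries (below 0 without replicate 1 of IMF-0d or replicate 3 of IMF-2d). The next step, to IMF-4d, ranged from -0.62 to 0.0316, above 0 without replicate 3 of IMF-4d. With a replicate block every number of members called stayed as reported, BF-0d vs. BF-8d with 4 and BF-0d vs. IMF-0d with 0.

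The filter at 10 TPM removes ssc-miR-29a-5p and ssc-miR-29c, which bounds its counts. For the other changes the cause was not tested. ssc-miR-29c and ssc-miR-29a-5p rest on 3 to 34 and 14 to 59 reads per library, and 3 libraries per group limit every exact test to a p of 0.1 or more between 2 groups. Of the comparisons that no setting called, 17 of 35 changed sign in some setting, in 41 of 482 alternatives.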
